A study of Mus musculus with 12 samples.

Results

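The genes of hepatic fatty acid synthesis were followed through the livers of WT and Atf7-/- mice conceived by natural mating or by in vitro fertilization (IVF). They were 10 genes chosen by symbol: Acly, Acaca, Acacb, Fasn, Me1, Elovl6 and Scd1, which encode enzymes of the pathway, Thrsp and Pnpla3, which are switched on with it, and Mlxipl, which encodes the transcription factor ChREBP. A gene was taken from the array where the platform annotation names it alone for a probe set, which held for 10 of 10 genes (of 19937 so named in all) and for 12 of 34760 probe sets, since Acaca and Me1 have a second one. Where a gene had several probe sets, the one with the highest mean over all arrays was used, and the other is given beside it.

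Total RNA of 12 male livers was read on as many Affymetrix Mouse Gene 1.0 ST arrays. There were 4 groups of 3 mice, named by genotype and conception: WT natural mating and WT IVF on one side, Atf7-/- natural mating and Atf7-/- IVF on the other. All mice were on a C57BL6/JJmsSlc background, Atf7-/- mice had Atf7-/- parents, and the labels give an age of 4 weeks. The IVF embryos were carried by pseudopregnant ICR females while the natural mating pups were carried by their own mothers, so fertilization in vitro, superovulation, embryo transfer and the strain of the mother cannot be told apart. Under natural mating the Atf7-/- pups were also carried by Atf7-/- mothers. Loss of ATF7 in the pup and in its mother cannot be told apart there. The IVF effect in Atf7-/- and its difference from that in WT contain this change of mother too. Within a group the 3 mice had 3 different mothers or recipients, so each is a separate animal. The values are log2 RMA values as the authors deposited them, and a difference of 1 on this scale is a doubling of signal.

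In liver, citrate leaves the mitochondrion and ATP citrate lyase (Acly) cleaves it to acetyl-CoA, acetyl-CoA carboxylase (Acaca) makes malonyl-CoA, and fatty acid synthase (Fasn) builds palmitate at the expense of NADPH, part of which malic enzyme (Me1) supplies. Elovl6 then lengthens palmitate and Scd1 introduces a double bond. Transcription of these genes is known to rise with carbohydrate feeding through ChREBP and, with insulin, through SREBP-1c (Srebf1), to fall in fasting, and to be low in suckling pups and rise at weaning. ATF7, the protein missing from Atf7-/- mice, belongs to the ATF/CREB family, whose members bind the cAMP response element (CRE). The question put to these genes was how their transcripts stood in the 4 groups, and whether IVF acted on them alike with and without ATF7.

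The windows around the annotated start sites are shown for 4 genes because these factors bind short motifs near promoters. Each window runs from 250 bases before to 50 bases after a start (RefSeq, GRCm38.p6), is written 5′ to 3′ on the strand of the gene, and lies at chr11:120824498-120824797 (minus strand) for Fasn, chr7:97417501-97417800 (minus strand) for Thrsp, chr5:135089640-135089939 (plus strand) for the start of Mlxipl that has an E-box, and chr15:84167566-84167865 (plus strand) for Pnpla3. Capitals mark matches on either strand to the E-box CACGTG, the SRE-like sequence TCACNCCAC, the CCAAT box (CCAAT, or ATTGG on the other strand) and the CRE TGACGTCA.
Fasn: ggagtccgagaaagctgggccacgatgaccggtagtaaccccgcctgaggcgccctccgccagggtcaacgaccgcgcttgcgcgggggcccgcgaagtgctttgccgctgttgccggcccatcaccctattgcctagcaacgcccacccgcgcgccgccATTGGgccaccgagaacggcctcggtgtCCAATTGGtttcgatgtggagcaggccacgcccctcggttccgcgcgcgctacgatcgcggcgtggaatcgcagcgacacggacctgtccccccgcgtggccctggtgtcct
Thrsp: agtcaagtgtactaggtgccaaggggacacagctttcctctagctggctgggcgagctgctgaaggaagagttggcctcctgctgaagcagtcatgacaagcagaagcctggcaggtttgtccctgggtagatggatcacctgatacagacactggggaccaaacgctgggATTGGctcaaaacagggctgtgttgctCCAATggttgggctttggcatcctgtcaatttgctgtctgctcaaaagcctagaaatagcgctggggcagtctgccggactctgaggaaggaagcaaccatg
Mlxipl: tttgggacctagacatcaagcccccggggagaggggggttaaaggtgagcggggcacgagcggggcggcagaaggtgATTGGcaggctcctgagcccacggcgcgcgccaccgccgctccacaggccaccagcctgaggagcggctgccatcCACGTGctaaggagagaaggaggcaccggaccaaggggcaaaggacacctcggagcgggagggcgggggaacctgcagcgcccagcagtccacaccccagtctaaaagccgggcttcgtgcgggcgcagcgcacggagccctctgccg
Pnpla3: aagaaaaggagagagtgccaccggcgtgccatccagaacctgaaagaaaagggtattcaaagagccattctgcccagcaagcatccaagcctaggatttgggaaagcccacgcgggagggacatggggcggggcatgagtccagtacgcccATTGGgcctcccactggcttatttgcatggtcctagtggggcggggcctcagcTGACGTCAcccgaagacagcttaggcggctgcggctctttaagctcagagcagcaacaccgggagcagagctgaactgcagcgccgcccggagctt

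Of the 10 genes, 9 had a window in the promoter table, Scd1 being the one without. The CCAAT box was present in 7 of these 9 genes (Fasn, Acacb, Acly, Me1, Thrsp, Mlxipl and Pnpla3), against 41.1% of all 27025 genes with a window. The E-box was found once, at positions -98 to -93 of Mlxipl, and is held by 7.15% of 32851 windows. The SRE-like sequence was found once too, at -136 to -128 of the other Mlxipl start, and is held by 1.24% of windows. The full CRE stood at -46 to -39 of Pnpla3 and in 1.79% of windows. It was the only place where the CRE half-site TGACG, held by 20.8% of windows and contained in the full CRE, occurred among the 9 genes. The D-box TTATGTAA, bound by the clock output factor DBP, was in none of their windows and in 0.938% of all. A match in these letters is a description of the sequence and not a binding site.

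The labels were checked on Atf7 first. Its probe set 10433032 read 8.78 ± 0.18 (SD, n = 3) in WT natural mating livers, 8.04 ± 0.43 in WT IVF livers, 5.96 ± 0.14 in Atf7-/- natural mating livers and 5.52 ± 0.17 in Atf7-/- IVF livers, so the groups of the 2 genotypes did not overlap. The other Atf7 probe set, 10433034, differed by -0.34 (adjusted p = 0.0758) between the natural mating groups, and where either lies relative to the deletion was not analysed here. With IVF in WT, probe set 10433032 was lower by limma (log2FC = -0.74, adjusted p = 0.0384), and 10433034 differed by -0.26 (adjusted p = 0.19). The paper reports that Atf7 mRNA did not differ between IVF and control livers. Arrays of a group correlated at r from 0.980 to 0.990 over all probe sets. Hepatocyte markers such as albumin were bright, with a mean over 9 markers between 12.74 and 12.87 on every array, although Hnf4a among them differed between groups (11.74 in Atf7-/- natural mating livers against 10.98 to 11.06 in the others, group means). The mean over 6 adipocyte markers lay between 5.21 and 5.61, and Adipoq, which fat cells make in quantity, stayed between 4.05 and 4.57. This bears on the lipogenic genes because adipose tissue expresses most of them too. In whole liver, fewer cells of a type and less RNA per cell cannot be told apart.

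Before any comparison of groups, 2 arrays have to be named, because the lipogenic genes stood apart on them from the other arrays of their own group. On Atf7-/- IVF replicate 2, 9 of the 10 genes were more than 1 above the mean of replicates 1 and 3 (log2), from 1.06 for Pnpla3 to 2.49 for Fasn, 2.80 for Thrsp and 3.76 for Elovl6. Mlxipl was the exception and differed by 0.03. Over all probe sets only 1.7% were more than 1 away from the other arrays of the group, in either direction, a share within the range over the 12 arrays (1.03% to 2.4%). On WT natural mating replicate 3, 6 of the 10 genes were more than 1 above replicates 1 and 2, led by Pnpla3 (3.19) and Thrsp (2.64), while Scd1 differed by 0.15; 2.4% of all probe sets did so on that array in either direction.

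The rest of the liver transcriptome gave further values for these arrays. On WT natural mating replicate 3 the mean over 12 genes of fasting and fatty acid oxidation was 9.85, against 10.63 and 10.41 in replicates 1 and 2, and Srebf1 was at 11.17 against 9.99 and 10.07. The fasting transcript Igfbp1 read 11.55, 10.93 and 9.97 in WT natural mating replicates 1 to 3. Lists of other cells differed on these arrays too. The mean over 3 erythroid markers was 7.24, 7.20 and 8.40, and that over 8 Kupffer cell and macrophage markers 8.97, 9.38 and 9.71. The mean over 9 hepatocyte markers was 12.80, 12.76 and 12.76. In the Atf7-/- IVF group the fasting genes had similar means (9.83, 9.85 and 9.85). Replicate 2 lay below both other arrays for 6 of 12 genes and above both for 6. Some margins were small, as for Cyp4a10 (11.71, 11.74 and 11.69) and Cyp4a14 (11.92, 11.96 and 11.85). The share of all probe sets with replicate 2 at an end was not counted. Cpt1a, which takes fatty acids into mitochondria, read 11.56, 10.83 and 11.65, Angptl4 8.79, 8.47 and 8.73, and Vnn1 7.90, 9.23 and 8.04. Pck1, a gene of gluconeogenesis from the insulin list, read 11.86, 11.29 and 11.88. Srebf1 read 9.66, 9.95 and 9.70 and Igfbp1 10.04, 10.30 and 10.18 in that group. The clock output gene Dbp was lower on Atf7-/- IVF replicate 2 (6.57) than on replicates 1 and 3 (7.93 and 7.92). The sources used here do not give the feeding state or the hour of dissection, and their part in these differences was not tested.

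**Figure D1:**
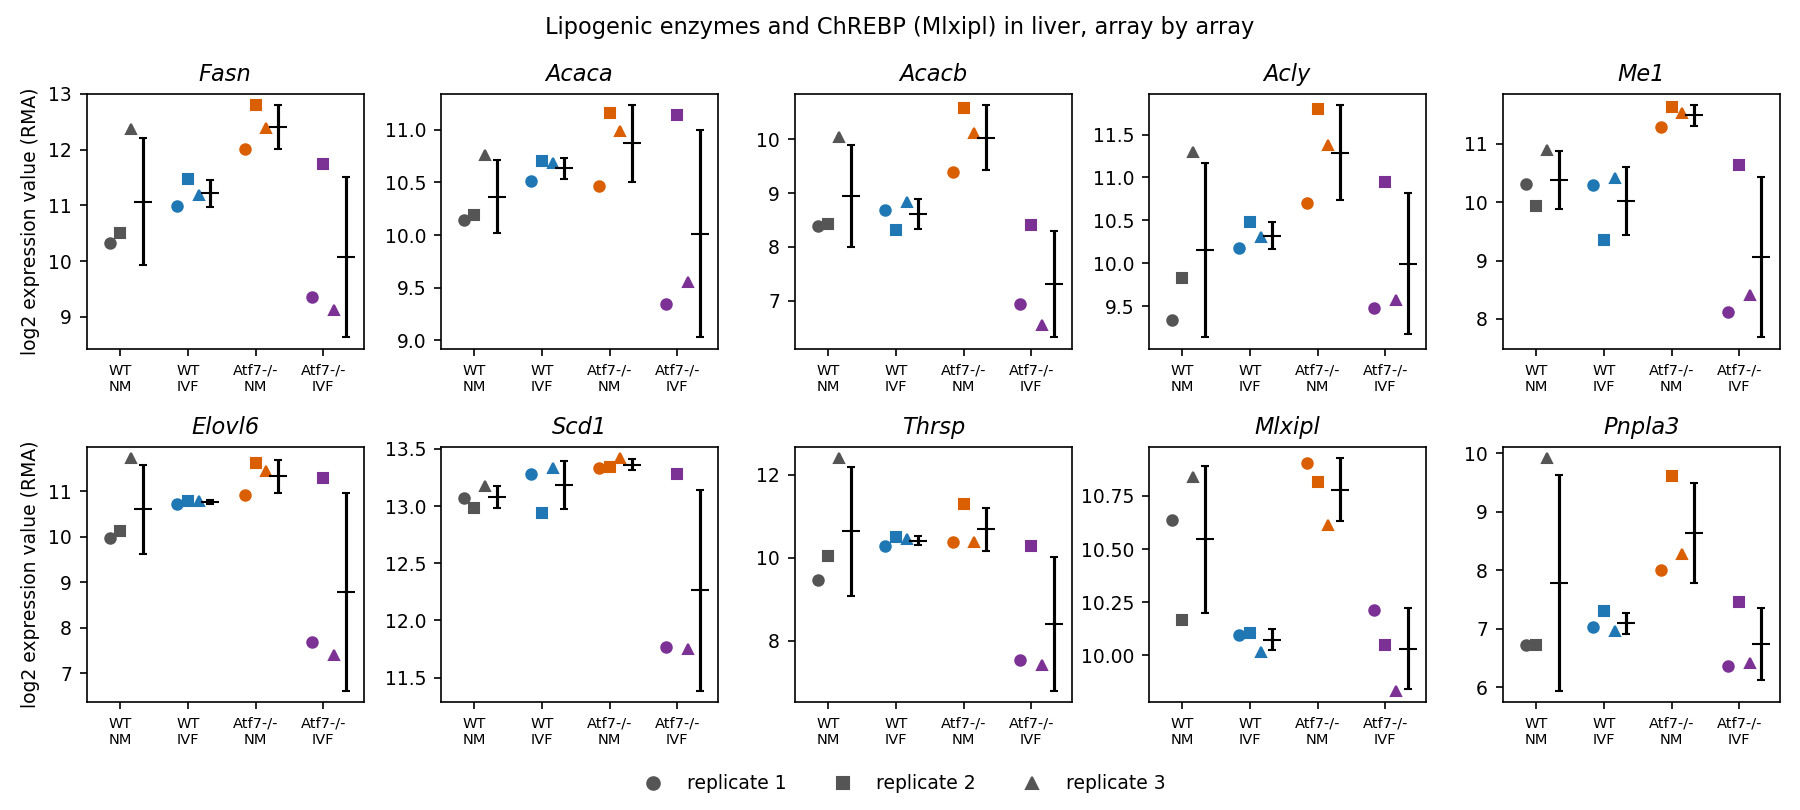
Log2 RMA value (y axis) of the 10 genes in each group (x axis; NM, natural mating), 1 point per mouse with its shape giving the replicate number, beside the group mean and SD (n = 3). Atf7-/- IVF replicates 1 and 3 lie lowest for every gene but Acly and Mlxipl, replicate 2 (square) lies well above them except in the panel of Mlxipl, and each panel has its own y scale.

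Acly makes the acetyl-CoA that the pathway uses. It read 9.34, 9.83 and 11.29 in WT natural mating livers, 10.17, 10.48 and 10.30 in WT IVF livers, 10.70, 11.79 and 11.38 in Atf7-/- natural mating livers, and 9.47, 10.94 and 9.57 in Atf7-/- IVF livers (replicates 1 to 3 in order, here and for the genes that follow). The 2 Atf7-/- groups overlapped through IVF replicate 2.

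The carboxylase isoforms came next. Acaca, whose malonyl-CoA feeds synthesis in the cytosol, read 10.14, 10.19 and 10.76 in WT natural mating livers, 10.52, 10.70 and 10.68 in WT IVF livers, 10.46, 11.16 and 10.99 in Atf7-/- natural mating livers, and in Atf7-/- IVF livers 9.34, 11.14 and 9.55. Acacb, whose malonyl-CoA restrains the entry of fatty acids into mitochondria, read 8.38, 8.43 and 10.04 in WT natural mating livers, 8.69, 8.31 and 8.83 in WT IVF livers, 9.39, 10.58 and 10.11 in Atf7-/- natural mating livers, and 6.95, 8.42 and 6.55 in Atf7-/- IVF livers. All 3 Atf7-/- IVF values of Acacb were under all 3 of Atf7-/- natural mating, which was not so for Acaca. The second Acaca probe set showed the same order of Atf7-/- IVF arrays (8.58, 10.53 and 8.78).

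Fasn, the synthase itself, read 10.33, 10.50 and 12.38 in WT natural mating livers and 11.00, 11.47 and 11.19 in WT IVF livers. It read 12.02, 12.80 and 12.39 in Atf7-/- natural mating livers and 9.36, 11.74 and 9.13 in Atf7-/- IVF livers. The highest Atf7-/- IVF array (11.74) was just under the lowest Atf7-/- natural mating array (12.02), and the other 2 lay far below both. Me1 read 10.31, 9.93 and 10.90 in WT natural mating livers, 10.29, 9.36 and 10.42 in WT IVF livers, 11.29, 11.64 and 11.53 in Atf7-/- natural mating livers, and 8.13, 10.64 and 8.41 in Atf7-/- IVF livers. Me1 was thus above all WT natural mating and all Atf7-/- IVF arrays in every Atf7-/- natural mating liver. Its second probe set gave 9.76, 9.79 and 10.31 in Atf7-/- natural mating livers against 6.40, 8.74 and 6.62 in Atf7-/- IVF livers.

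Elovl6 and Scd1 process the palmitate that Fasn releases. Elovl6 read 9.97, 10.12 and 11.73 in WT natural mating livers, 10.72, 10.79 and 10.79 in WT IVF livers, 10.93, 11.63 and 11.45 in Atf7-/- natural mating livers, and 7.67, 11.30 and 7.39 in Atf7-/- IVF livers. Its SD of 2.18 in Atf7-/- IVF livers was the largest of any gene and group here, and that of 0.04 in WT IVF livers the smallest. Scd1 read 13.07, 12.98 and 13.17 in WT natural mating livers, 13.28, 12.94 and 13.33 in WT IVF livers, 13.33, 13.34 and 13.42 in Atf7-/- natural mating livers, and in Atf7-/- IVF livers 11.76, 13.28 and 11.75. Scd1 lay near the top of the scale, where the brightest probe set of each array was at 14.14 to 14.28. Outside Atf7-/- IVF its values stayed between 12.94 and 13.42.

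Thrsp (Spot 14), a nuclear protein induced with lipogenesis, read 9.46, 10.05 and 12.40 in WT natural mating livers, 10.28, 10.50 and 10.45 in WT IVF livers, 10.39, 11.29 and 10.37 in Atf7-/- natural mating livers, and 7.54, 10.27 and 7.41 in Atf7-/- IVF livers. Pnpla3, a lipid droplet protein induced by SREBP-1c, read 6.72, 6.72 and 9.91 in WT natural mating livers, 7.03, 7.30 and 6.96 in WT IVF livers, 8.00, 9.60 and 8.28 in Atf7-/- natural mating livers, and in Atf7-/- IVF livers 6.36, 7.45 and 6.42. In both genes the array at the top of all 12 was WT natural mating replicate 3, and in both the Atf7-/- IVF arrays lay under all Atf7-/- natural mating arrays.

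Mlxipl, the ChREBP gene, read 10.64, 10.16 and 10.84 in WT natural mating livers and 10.10, 10.11 and 10.02 in WT IVF livers. It read 10.90, 10.82 and 10.61 in Atf7-/- natural mating livers and 10.21, 10.05 and 9.83 in Atf7-/- IVF livers. All 3 IVF arrays were under all 3 natural mating arrays in each genotype, and Atf7-/- IVF replicate 2 was the middle value of its group. Mlxipl was therefore the gene of the 10 that did not share the split within Atf7-/- IVF, and its SD over the 12 arrays was 0.38 against 1.18 for Fasn and 1.39 for Thrsp.

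All 10 genes had their highest group mean in Atf7-/- natural mating and their lowest in Atf7-/- IVF, with the WT groups between. For Fasn these means were 12.40 ± 0.39 and 10.08 ± 1.44 (SD, n = 3), with WT IVF at 11.22 ± 0.24 and WT natural mating at 11.07 ± 1.13. Of neighbours in this order, the tests below did not tell apart the WT groups, Atf7-/- IVF and the WT group next above it, or the natural mating groups, and Atf7-/- natural mating was not compared with WT IVF. Every test is limma fitted to all 34760 probe sets over the 4 groups, p-values are adjusted by Benjamini and Hochberg's method over all of them, and a call required an adjusted p no higher than 0.05 together with a log2 fold change (log2FC) of 0.6 or more in size.

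In Atf7-/- liver, IVF was followed by lower lipogenic transcripts. Of the 10 genes, 5 were called lower and 0 higher, while 3.51% of all probe sets were called lower and 3.27% higher. Acacb fell most (log2FC = -2.72, SE 0.53, adjusted p = 0.00709), a drop to a 6.60-fold lower signal. Me1 (log2FC = -2.43, SE 0.56, adjusted p = 0.0153) and Fasn (log2FC = -2.33, SE 0.66, adjusted p = 0.0415) fell by a similar size, at 5.38-fold and 5.01-fold lower. Scd1 (log2FC = -1.10, SE 0.32, adjusted p = 0.0475) and Mlxipl (log2FC = -0.75, SE 0.16, adjusted p = 0.0117) fell by less. The second Me1 probe set was called as well (log2FC = -2.70, adjusted p = 0.0113).

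Elovl6 (log2FC = -2.55, SE 0.84, adjusted p = 0.074), Thrsp (-2.28, SE 0.81, 0.0937), Acly (-1.29, SE 0.50, 0.126), Pnpla3 (-1.88, SE 0.75, 0.132) and Acaca (-0.86, SE 0.39, 0.195) were not called. The estimates of Elovl6 and Thrsp lay within the range of the called genes, and their errors were larger. The 2 Atf7-/- groups did not overlap for 7 genes (Fasn, Acacb, Me1, Scd1, Thrsp, Mlxipl and Pnpla3), against 16.2% of all probe sets that lay below in this way. The median log2FC of the 10 genes was -2.08, beside 0.0057 over all probe sets.

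The calls in this comparison depended on single arrays. Without Atf7-/- IVF replicate 2, 9 of the 10 genes were called lower, all but Pnpla3, with Elovl6 at -3.80 (adjusted p = 0.00115), Fasn at -3.16 (adjusted p = 0.00517) and Scd1 at -1.60 (adjusted p = 0.000376). Without Atf7-/- IVF replicate 3, only Acacb was called (log2FC = -2.35, adjusted p = 0.034), and without either Atf7-/- natural mating replicate 1 or 2 there were 2 calls. Leaving out Atf7-/- natural mating replicate 3, Atf7-/- IVF replicate 1 or any WT IVF array left 3 calls, and leaving out WT natural mating replicate 3 gave 7. Acacb kept its call in all 12 of these fits, with adjusted p from 0.00306 to 0.034. Scd1 lost its call in 11 of them, Fasn in 8, and Me1 and Mlxipl in 2 each. The WT arrays are not part of this contrast. Leaving 1 of them out keeps the estimate and changes its error, which comes from a variance shared over the 4 groups. The SDs of the groups were unlike, as for Scd1 with 0.88 in Atf7-/- IVF and 0.05 in Atf7-/- natural mating livers. The errors and calls thus rest on the spread of all groups.

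**Figure D2:**
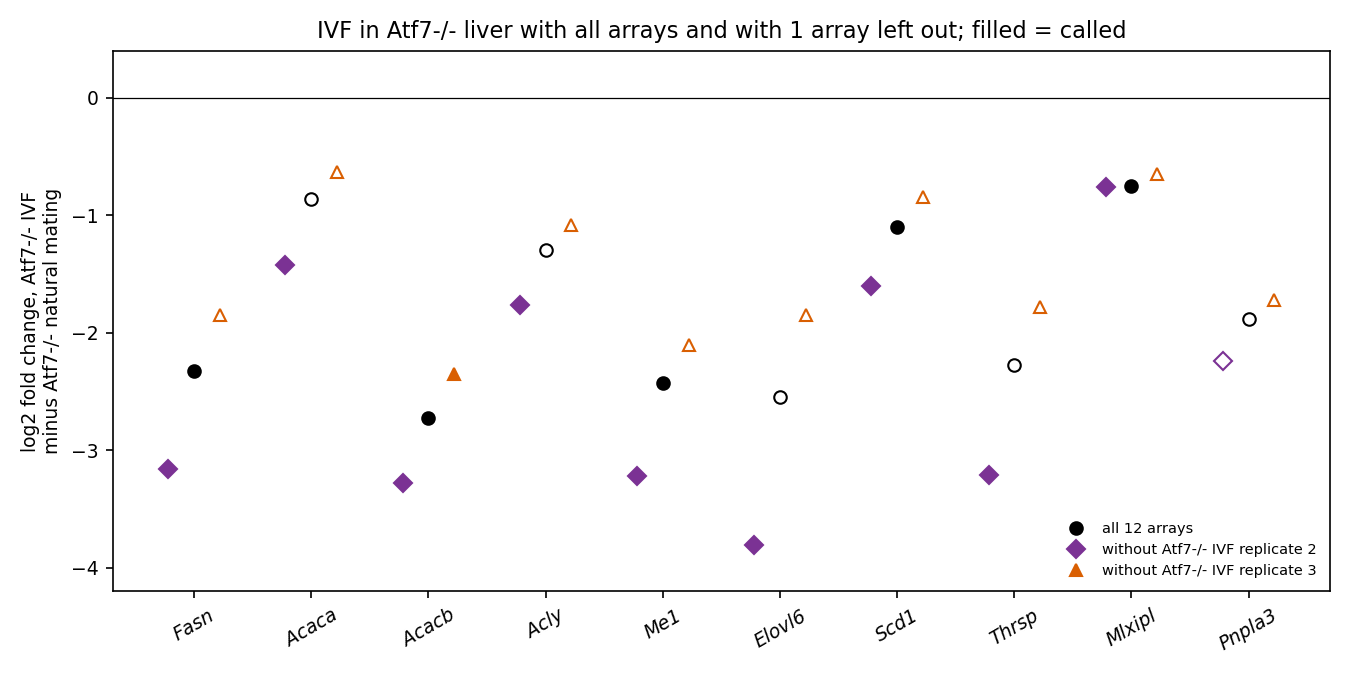
Log2 fold change of Atf7-/- IVF against Atf7-/- natural mating (y axis) for the 10 genes (x axis), from all 12 arrays (circles), without Atf7-/- IVF replicate 2 (diamonds) and without Atf7-/- IVF replicate 3 (triangles), the arrays whose removal gave the most and the fewest calls; filled symbols were called. The diamonds lie clearly lowest for every gene but Mlxipl, where the 3 estimates are close together, and only Acacb is filled in all 3 fits.

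In WT liver, IVF left the pathway without a call. Of the 10 genes, 0 were called by limma, while 4.52% of all probe sets were, and 1 gene had an unadjusted p under 0.05, beside 24.9% of all probe sets. The estimates were positive for 5 genes and negative for 5, from -0.69 for Pnpla3 to 0.27 for Acaca, with a median of -0.059 beside -0.036 over all probe sets. The gene with the small unadjusted p was Mlxipl (log2FC = -0.47, SE 0.16, adjusted p = 0.0983), the one whose WT groups did not overlap, against 15.4% of all probe sets that lay below. Without WT natural mating replicate 2, the lowest array of its group, Mlxipl was called (log2FC = -0.67, adjusted p = 0.0264). For Fasn the estimate was 0.15 (SE 0.66), with a 95% interval from -1.31 to 1.61 on the log2 scale.

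Between the natural mating groups, where ATF7 is lost in pups and their mothers without IVF, all 10 estimates were positive and 0 were called by limma. Of all probe sets 7.5% were called in this comparison, and 3.83% were called higher. The largest were Fasn (log2FC = 1.33, SE 0.66, adjusted p = 0.235), Acly (1.14, SE 0.50, 0.176), Me1 (1.11, SE 0.56, 0.238) and Acacb (1.08, SE 0.53, 0.231), and the smallest Thrsp (0.05, SE 0.81). An unadjusted p under 0.05 was reached by 1 gene, Acly, and by 26.6% of all probe sets. The groups did not overlap for Me1 and Scd1, against 15.5% of probe sets that lay above. The second Me1 probe set came closest to a call (log2FC = 1.86, SE 0.58, adjusted p = 0.0579). Without WT natural mating replicate 3, the array high for these genes, Acly (log2FC = 1.71, adjusted p = 0.0273) and Pnpla3 (log2FC = 1.91, adjusted p = 0.0195) were called. Without Atf7-/- IVF replicate 2 Me1 was called (adjusted p = 0.0353). That array is not in this comparison, so the Me1 estimate stayed at 1.11 and only the variance shared over the groups changed.

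Between the IVF groups, all 10 estimates were negative and 0 were called by limma, in a comparison that called 0.00575% of all probe sets. They ran from -2.00 for Thrsp (SE 0.81, adjusted p = 0.783) and -1.98 for Elovl6 to -0.04 for Mlxipl. An unadjusted p under 0.05 was reached by 4 genes and by 6.12% of all probe sets. Thrsp was the gene whose groups did not overlap, against 5.09% of all probe sets that lay below. Without Atf7-/- IVF replicate 2, Scd1 was called (log2FC = -1.43, adjusted p = 0.00522).

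Set against WT natural mating, Atf7-/- IVF gave negative estimates for all 10 genes, from -2.23 for Thrsp (SE 0.81, adjusted p = 0.137) to -0.16 for Acly, and limma called 0 of them against 3.14% of all probe sets. Acacb (log2FC = -1.65, SE 0.53, adjusted p = 0.0993) and Mlxipl (log2FC = -0.52, SE 0.16, adjusted p = 0.0921) were closest to a call. Of the 10 genes 5 had an unadjusted p under 0.05, beside 21.3% of all probe sets, and the groups overlapped for each gene. Without Atf7-/- IVF replicate 2, Me1, Elovl6, Scd1 and Thrsp were called, and without WT natural mating replicate 2 Mlxipl was (adjusted p = 0.0274).

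Whether the IVF effect itself differed between genotypes was tested as the interaction, the IVF effect in Atf7-/- minus that in WT. All 10 estimates were negative, from -2.71 for Elovl6 (SE 1.19, adjusted p = 0.212) to -0.27 for Mlxipl (SE 0.23, adjusted p = 0.541), and 0 were called by limma while 6.18% of all probe sets were, 2.72% higher and 3.46% lower. Acacb stood at -2.38 (SE 0.75, adjusted p = 0.0855), Fasn at -2.48 (SE 0.94, adjusted p = 0.147), Me1 at -2.07 (SE 0.79, adjusted p = 0.147) and Scd1 at -1.21 (SE 0.46, adjusted p = 0.147). An unadjusted p under 0.05 was reached by 5 of the 10 genes and by 22.1% of all probe sets. With all arrays, the fall seen in Atf7-/- liver was thus not shown to differ from the IVF effect in WT liver for any of the 10 genes. Without Atf7-/- IVF replicate 2, the difference was called for Fasn, Acaca, Acacb, Me1, Elovl6 and Scd1, and without WT natural mating replicate 3 for Fasn, Acacb and Pnpla3. The comparisons share arrays, so their estimates are not independent of one another.

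**Figure D3:**
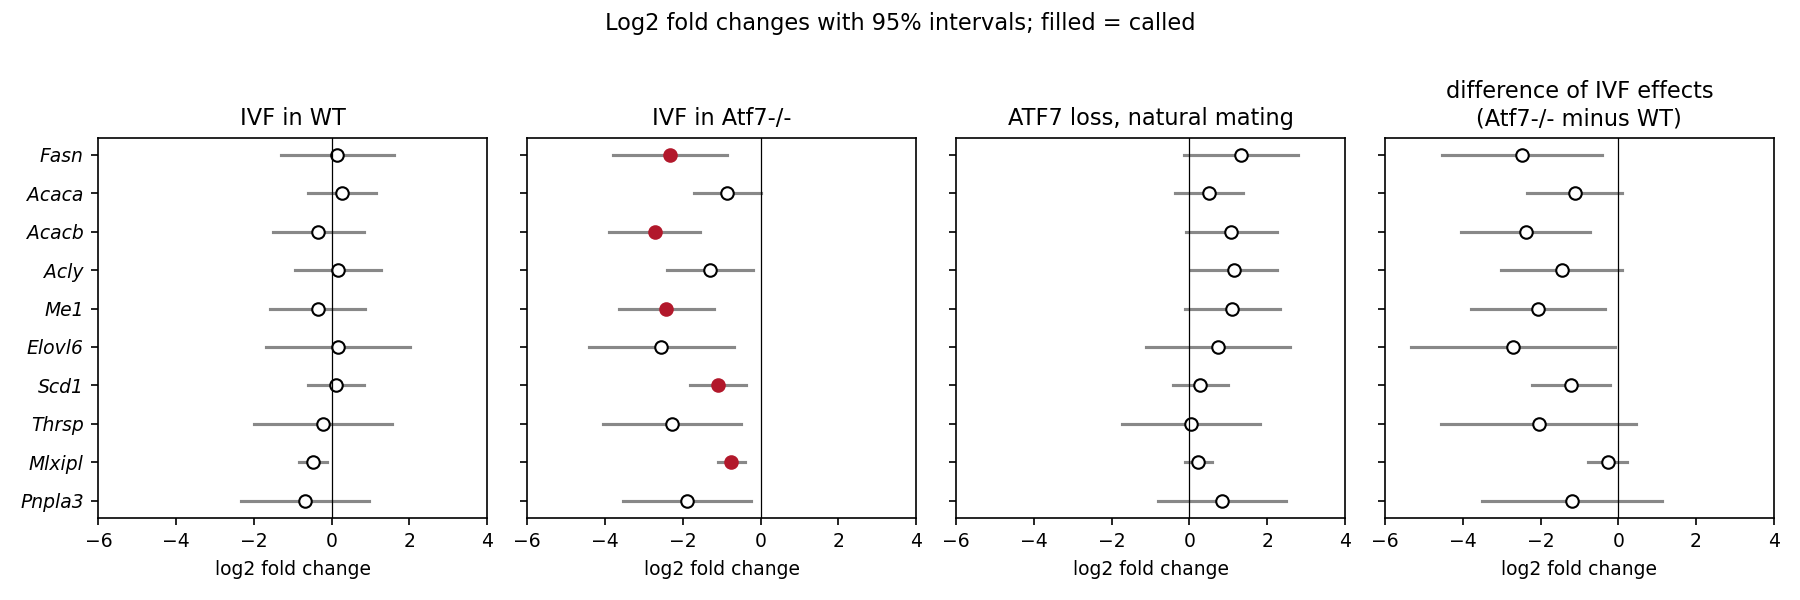
Log2 fold change (x axis) of the 10 genes (rows) with its 95% interval from limma in panels for the IVF effect in WT, the IVF effect in Atf7-/-, ATF7 loss under natural mating, and the difference of the 2 IVF effects; filled points were called. Estimates for IVF in WT surround 0, those for IVF in Atf7-/- are all negative with 5 called, and no point is filled in the other panels.

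The factors that drive the pathway were read on the same arrays. Srebf1, the SREBP-1c gene, differed by -0.04 (SE 0.33, adjusted p = 0.967) between the Atf7-/- groups and by -0.59 (SE 0.33, adjusted p = 0.297) with IVF in WT. Insig1, which retains SREBP in the endoplasmic reticulum and is itself an SREBP target, fell with IVF in Atf7-/- (log2FC = -1.20, SE 0.31, adjusted p = 0.0279). It read 11.62, 12.13 and 11.61 in Atf7-/- natural mating livers against 10.56, 10.93 and 10.25 in Atf7-/- IVF livers, with no overlap. Insig2, a relative of Insig1, rose with IVF in WT (log2FC = 1.37, SE 0.20, adjusted p = 0.00327) and in Atf7-/- (log2FC = 0.68, SE 0.20, adjusted p = 0.0418). Nr1h3, the LXRα gene, fell in Atf7-/- with IVF (log2FC = -0.69, SE 0.09, adjusted p = 0.00116), and so did Srebf2, which drives sterol synthesis (log2FC = -0.68, SE 0.09, adjusted p = 0.000919). Srebf2 rose with ATF7 loss under natural mating (log2FC = 0.75, adjusted p = 0.000399). Usf1 (0.10, SE 0.15, adjusted p = 0.755) and Mlx, the partner that ChREBP needs to bind DNA (-0.11, SE 0.16, adjusted p = 0.755), were not called. Of the 17 genes of the SREBP-1c and LXR list, 1 rose and 5 fell with IVF in Atf7-/- (3.27% and 3.51% of all probe sets). Scap (log2FC = -0.97) and Abcg8 (log2FC = -0.71) were among the falls. The counts of rises and falls in the list were 0 and 4 without Atf7-/- IVF replicate 2, where the call of Insig2 was lost.

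Of 14 ChREBP partners and targets measured, 6 fell and 0 rose with IVF in Atf7-/- (3.51% of all probe sets fell), at a median log2FC of -0.50. Pklr, the liver pyruvate kinase and a classical ChREBP target, read 12.51, 12.58 and 12.62 in Atf7-/- natural mating livers and 10.82, 12.16 and 10.76 in Atf7-/- IVF livers (log2FC = -1.32, SE 0.33, adjusted p = 0.0228). Its values in WT natural mating were 11.09, 10.96 and 11.82 and in WT IVF 11.87, 12.06 and 11.97, and it rose with ATF7 loss under natural mating (log2FC = 1.28, adjusted p = 0.0255). Pklr thus repeated the high reading of Atf7-/- IVF replicate 2. Klf10 (log2FC = -1.99), Tm6sf2 (log2FC = -1.44), which acts in lipid secretion, and Mlxip, the ChREBP paralog (log2FC = -0.80), fell as well. Txnip, another ChREBP target, was at -0.31 (SE 0.31, adjusted p = 0.618). With IVF in WT 0 of the 14 were called by limma, and 6 had an unadjusted p under 0.05, as did 24.9% of all probe sets.

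Genes that feed, regulate or extend the pathway were counted next. Of 10 genes of acetyl-CoA and citrate supply, 4 fell and 0 rose with IVF in Atf7-/-. They were Acss2, which activates acetate (log2FC = -1.89), citrate synthase (Cs, log2FC = -1.06), the citrate carrier Slc25a1 (log2FC = -0.87) and Pdk2 (log2FC = -1.08). Pdk2 encodes a kinase that inhibits pyruvate dehydrogenase, so it restrains this supply and is not a supplier. Among 7 NADPH suppliers 1 fell, Pgd of the pentose phosphate pathway (log2FC = -1.67, SE 0.22, adjusted p = 0.00103), which had risen with ATF7 loss under natural mating (log2FC = 1.67). Of 15 other genes of fatty acid synthesis and elongation 6 fell and 0 rose, led by Scd2 (log2FC = -1.82), Cyb5r3 (log2FC = -1.31), Mid1ip1, the paralog of Thrsp (log2FC = -1.20), and Elovl1 (log2FC = -1.03). In the same list 5 rose and 0 fell with ATF7 loss under natural mating, and limma called 0 with IVF in WT (4 had an unadjusted p under 0.05, beside 24.9% of all probe sets). Triglyceride synthesis and lipid droplet genes had 8 of 17 falls and 0 rises with IVF in Atf7-/-, with Lpin1 (log2FC = -2.66), Gpam (log2FC = -1.18), the lipase Pnpla2 (log2FC = -1.09) and Cidec (log2FC = -0.99) at the front. With IVF in WT this list had 3 falls and 1 rise, and the acetyl-CoA and citrate list 1 of each. The NADPH list had 0 calls there by limma, with an unadjusted p under 0.05 for 2. The droplet genes just named had lower means after IVF in WT livers too. They went from 9.96 to 9.57 for Lpin1, 10.74 to 10.15 for Gpam, 9.46 to 8.67 for Pnpla2 and 7.37 to 6.29 for Cidec. The counts for IVF in Atf7-/- stand beside the 3.51% of probe sets called lower, and those for WT beside 1.67% lower and 2.85% higher. No set was tested against these shares. Without Atf7-/- IVF replicate 2, a setting chosen after seeing the data, the falls with IVF in Atf7-/- were 5, 2, 6 and 6 in these 4 lists and 7 among the ChREBP genes. Of these, 3, 1, 6, 6 and 6 were also called with all arrays, so some genes lost their call. Without WT natural mating replicate 3 the falls were 4, 1, 6, 8 and 6.

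Lists of other states were counted in the same way for IVF in Atf7-/-, where 3.51% of all probe sets were called lower and 3.27% higher. Genes of fasting and fatty acid oxidation, which are known to run opposite to lipogenesis, fell in 4 of 12 and rose in 0: the PPARα targets Vnn1 (log2FC = -2.75), Angptl4 (log2FC = -1.46), Ehhadh (log2FC = -1.12) and Cyp4a14 (log2FC = -0.93). Cpt1a was at -0.54 (SE 0.27, adjusted p = 0.242). In the insulin list 1 of 11 was called, Foxo1 (log2FC = -0.73), with Pck1 at -0.57 (SE 0.18, adjusted p = 0.057) and Igfbp1 at 0.32 (SE 0.44, adjusted p = 0.724). Of 7 AMPK subunits limma called 0, and 3 had an unadjusted p under 0.05. Markers of Kupffer cells (8 genes), endothelial cells (6), stellate cells (7), cholangiocytes (4) and adipocytes (6) gave 0 calls in limma with IVF in Atf7-/-, with an unadjusted p under 0.05 for 4, 1, 2, 0 and 0 of them, where 26% of all probe sets had one. Of 9 hepatocyte markers Hnf4a was called lower (log2FC = -0.76), and 7 had an unadjusted p under 0.05 in limma. The estimates of the 9 were positive for 6 and negative for 3. Of 3 erythroid markers Tfrc, also the transferrin receptor of hepatocytes, rose (log2FC = 1.84), and 1 had an unadjusted p under 0.05. With IVF in WT, 2 insulin genes and 1 Kupffer cell marker were called lower. There 1 AMPK subunit, 1 endothelial and 1 stellate cell marker were called higher.

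Clock genes moved with IVF in both genotypes, 3 of 17 up and 6 down in Atf7-/-, where 3.27% of all probe sets were called higher and 3.51% lower, and 3 up and 9 down in WT, where these shares were 2.85% and 1.67%. Arntl rose by 1.66 (SE 0.18) in Atf7-/- and by 2.23 (SE 0.18) in WT, and Dbp fell by 1.96 (SE 0.33) and 2.28 (SE 0.33). Lipogenic transcripts are known to cycle over the day. The part of the clock in the lipogenic values was not tested.

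**Figure D4:**
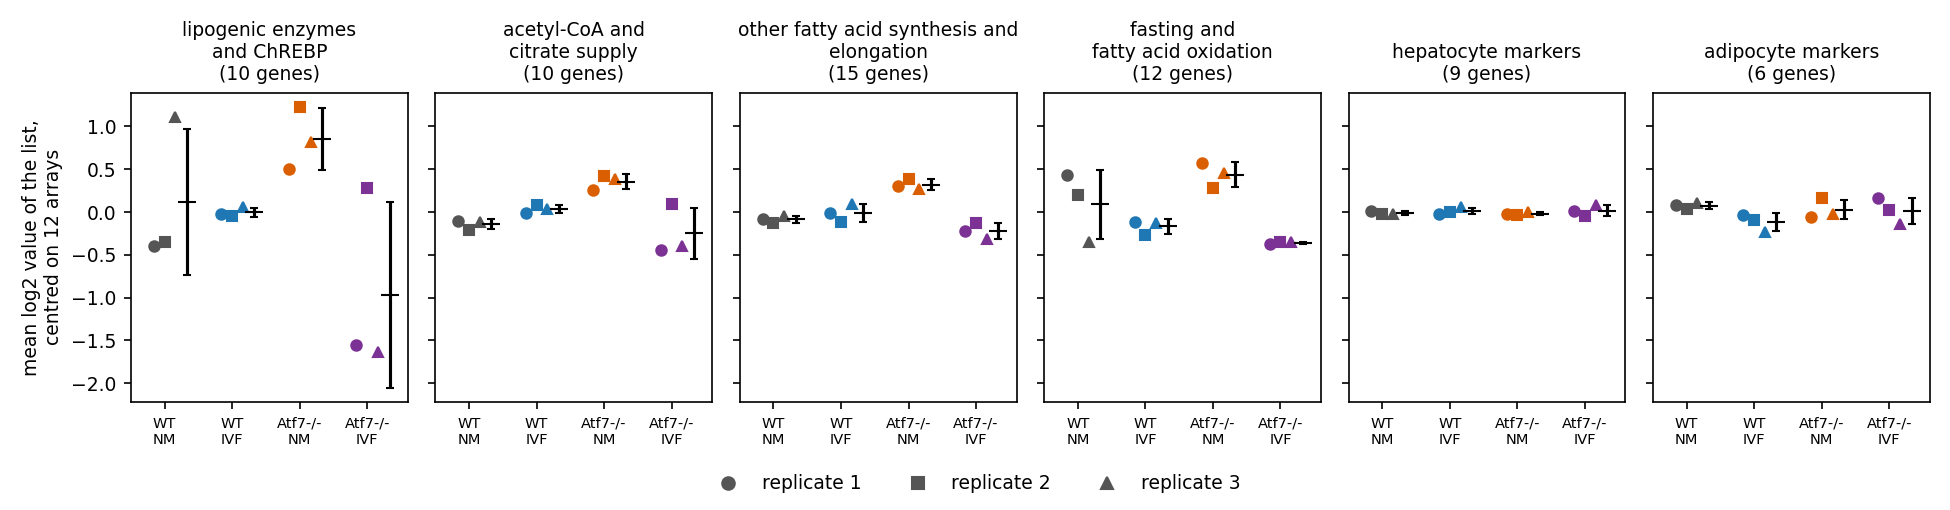
Mean log2 value of each list per mouse (y axis), centred on the mean over all 12 arrays, for the 10 lipogenic genes and 5 other lists in the 4 groups (x axis; NM, natural mating), with group mean and SD (n = 3). For the lipogenic genes Atf7-/- IVF replicates 1 and 3 lie at -1.56 and -1.63 and replicate 2 at 0.29, WT natural mating replicate 3 lies at 1.11, and the mean of the hepatocyte markers stays within 0.1 of 0.

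Among themselves the 10 genes had profiles of unlike depth. Measured as the root mean square difference of centred log2 values over the 12 arrays, the closest pairs were Acaca with Scd1 (0.28), Fasn with Acacb (0.39) and Acacb with Me1 (0.40). The farthest were Mlxipl with Elovl6 (1.22) and with Thrsp (1.17). Beyond the 10 genes, the smallest distances to Fasn among 21628 probe sets with 1 symbol belonged to Aacs (0.44), Acss2 (0.46), Sqle (0.51), Nsdhl (0.52) and Fdps (0.54), where the SD of Fasn itself was 1.18. Aacs and Acss2 activate acetoacetate and acetate, and Sqle, Nsdhl and Fdps are enzymes of sterol synthesis. Thrsp was closest to Aacs (0.56), Sqle (0.74), Insig1 (0.83), Acss2 (0.89) and the urinary protein gene Mup3 (0.89). Aacs read 10.09 on WT natural mating replicate 3 against 7.61 and 7.83 on replicates 1 and 2, and 8.40 on Atf7-/- IVF replicate 2 against 6.65 and 6.78 on replicates 1 and 3.

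Mlxipl had other neighbours: Slc16a13 (0.10), Crtc1 (0.13), Tmem238 (0.13), Kyat1 (0.14) and Mpv17l2 (0.14), where its own SD was 0.38. None of these was among the 5 closest to Fasn or to Thrsp. This follows from the distance of Mlxipl itself to Fasn (0.94) and to Thrsp (1.17). Slc16a13, a monocarboxylate transporter, read 6.91, 6.86 and 6.80 in Atf7-/- natural mating livers and 6.45, 6.25 and 5.89 in Atf7-/- IVF livers. These genes were picked for a profile like that of Mlxipl, Fasn or Thrsp on the same arrays, so their likeness is a description and was not tested.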

How the data were processed

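Livers of 12 male mice were measured on Affymetrix Mouse Gene 1.0 ST arrays, 3 per group. The authors normalised the scans with RMA in affy and deposited log2 values, used unchanged here; the sources used here give no versions. The labels give the age as 4 weeks and the study's methods give a younger one. Of 34760 probe sets, 21640 carry 1 gene symbol, 1321 several and 11799 none; genes were named from those with 1. The fit used limma 3.58.1 under R 4.3.3 (4 group means, 8 residual degrees of freedom, Benjamini-Hochberg over all probe sets; calls needed an adjusted p up to 0.05 and a log2 fold change of 0.6 or more in size). The step was tested on simulated data. The number of arrays limits the precision. The genes and lists were chosen with earlier results of these data known; 167 of 184 list genes had a probe set. Beside the 10 genes, named are set regulators, up to 4 called genes per list with the largest change, and the 5 closest profiles to Fasn, Mlxipl and Thrsp. Figures used matplotlib 3.10.9 in Python 3.11.15. Alternatives left out each array in turn, fitted the compared groups alone, blocked on replicate number, weighted arrays, used an intensity trend with robust variances, recentred or quantile-normalised the arrays, dropped the minimum fold, or kept brighter or 1-symbol probe sets.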

Additional observations from a re-analysis of the deposited data

Results flagged for a closer look

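None of the 10 lipogenic genes was called for a difference between genotypes in its IVF effect, but several genes named beside them were by the interaction test in limma (the IVF effect in Atf7-/- minus that in WT, with the same limits on adjusted p and fold change). In the supply of acetyl-CoA, citrate and NADPH these were Pgd (-1.94, adjusted p = 0.00571), Cs (-1.19, adjusted p = 0.013) and Slc25a1 (-0.92, adjusted p = 0.0347). Among elongation and droplet genes they were Lpin1 (-2.26, adjusted p = 0.00268), Cyb5r3 (-1.17, adjusted p = 0.00145) and Elovl1 (-0.97, adjusted p = 0.0319). Among ChREBP targets they were Pklr (-2.00, adjusted p = 0.0277), Klf10 (-2.00, adjusted p = 0.0322) and Tm6sf2 (-1.61, adjusted p = 0.000464). Srebf2 (-1.01, adjusted p = 0.00151), Foxo1 (-0.65, adjusted p = 0.0251), Angptl4 (-1.34, adjusted p = 0.0387), Hnf4a (-0.74, adjusted p = 0.026), Per1 (-0.81, adjusted p = 0.0319) and Bhlhe40 (-1.92, adjusted p = 0.0132) were called as well. Most of these genes were named for a fall with IVF in Atf7-/-, which the interaction contains, so their shared sign follows from that choice. In the same lists Gpat4 (0.94, adjusted p = 0.0244), Acadl (0.65, adjusted p = 0.0231), Per2 (0.91, adjusted p = 0.0239), Per3 (1.83, adjusted p = 0.00714) and Cd5l (1.18, adjusted p = 0.01), picked after their values were seen, were called in the other direction. Over all probe sets 2.72% were called higher and 3.46% lower.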

How the results depend on the processing

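With IVF in Atf7-/-, 5 of the 10 genes were called. A fit of only the groups compared called 3, and leaving out 1 array called from 1 to 9. With the replicate number as a replicate block 4 were called, Scd1 losing its call (adjusted p = 0.0696). Whether the numbers mark livers handled together is not given by the labels and was not settled here. Same-numbered deviations correlated at 0.14, 0.04 and 0.24 between the IVF groups, where 5 of 6 arrays correlated best with their own number. Between the natural mating groups they correlated at 0.18, 0.06 and 0.03, and 4 of 6 arrays did so. This held for 2 of 6 with IVF in WT, 0 with IVF in Atf7-/- and 1 for Atf7-/- IVF against WT natural mating. In no comparison were all 3 correlations over 0.1. The comparisons other than IVF in Atf7-/- called 0 with all arrays, and alternatives gave at most 1 call apart from arrays left out. For ATF7 loss under natural mating, only the groups compared and array weights gave 1 call each, and arrays left out 0 to 2. For Atf7-/- IVF against WT natural mating, the brighter probe sets and those with 1 symbol gave 1 call each, and arrays left out 0 to 4. For the interaction, array weights, the brighter probe sets and those with 1 symbol gave 1 each, and arrays left out 0 to 6. Arrays left out gave 0 to 1 calls for IVF in WT and 0 to 1 for ATF7 loss under IVF. The cause of these shifts was not tested.

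Estimates that changed sign were all uncalled. For IVF in WT with arrays left out these were Fasn (-0.22 to 0.80), Acacb (-0.63 to 0.20), Acly (-0.24 to 0.74), Elovl6 (-0.16 to 0.72), Pnpla3 (-1.22 to 0.38) and Thrsp (-0.81 to 0.65, and 0.20 with array weights). Thrsp under ATF7 loss by natural mating ran from -0.54 to 0.93, and was -0.0058 after quantile normalisation. For Atf7-/- IVF against WT natural mating, Acly ran from -0.63 to 0.41 (0.12 with array weights) and Pnpla3 from -1.57 to 0.024. Mlxipl under ATF7 loss with IVF ran from -0.13 to 0.057. Of all alternative values of single genes, 1116 kept their direction and side of the threshold, 27 lost a call, 40 gained one and 19 changed sign. Signal over background was not analysed here, and 3 arrays per group limit what can be told apart.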
